A study of Sus scrofa with 30 samples.

Results

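IER2, IER3 and IER5 are the 3 immediate early response genes described here, in pig cerebral cortex after cardiac arrest and resuscitation. They were chosen by name, as every probe set whose single gene symbol in the platform's table is IER2, IER3 or IER5. Earlier results of these data were known when the genes and gene lists were chosen, so their ranks and counts are descriptions. This gave 5 probe sets of 24123 on the array, for 3 of 6765 genes named by a single symbol: 1 for IER2 (NCBI gene ID 100525209), 1 for IER3 (100154770) and 3 for IER5 (100511095). The IER5 probe sets are called 1, 2 and 3, in the order of the numbers in their identifiers. Of the 5, 4 lay above the filter on low values and were tested, and IER5 probe set 2 did not. Each tested probe set is counted as a member below, and IER5 probe sets 1 and 3 are of the same gene.

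Immediate early genes are transcribed soon after a stimulus, without waiting for new proteins to be made, and their messenger RNAs are mostly short-lived. IER2 encodes a nuclear protein that takes part in transcription and is induced by growth factors and, in neurons, by activity. IER3, also called IEX-1, encodes a short-lived stress protein that acts on cell survival and on signalling through the ERK kinases, and it is a known target of NF-kB and p53. IER5 shares a conserved N-terminal region with IER2, and it brings the phosphatase PP2A to heat shock factor HSF1, which is activated when it loses phosphate groups.

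The study measured transcripts in cortex of prepubertal farm pigs of both sexes, a Swedish triple breed aged 12 to 14 weeks, all under pentobarbital and all with ventricular fibrillation induced by current. In 4 groups the brain was taken 0, 5, 20 or 30 min into untreated arrest (CA0, CA5, CA20, CA30), so the CA0 control had also been anaesthetized and fibrillated. The remaining 6 groups had 12 min of arrest and then 8 min of chest compressions, and the brain was taken 30, 60 or 180 min after spontaneous circulation returned. These pigs were infused with saline at 55 mL/kg/h (SAL30, SAL60, SAL180) or with the same saline plus methylene blue at 7.5 mg/kg/h (MB30, MB60, MB180), from 1 min after compressions began to 50 min after circulation returned. Methylene blue is a redox dye that blocks nitric oxide synthase and guanylate cyclase. Each of the 10 groups had 3 arrays, labelled as biological replicates.

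Intensity is the array's brightness on a linear, arbitrary scale, and each array's values had been scaled by the authors. Median intensity ran from 87.1 to 108 over the 30 arrays. An RNA quality measure, the log2 ratio of 3' to 5' signal of control transcripts, which grows as RNA is degraded, ran from 0.71 to 1.35 on the methylene blue arrays and from 0.98 to 2.71 on the other arrays, and 4 of those were above 2: CA20 replicates 2 and 3, SAL60 replicate 2 and SAL180 replicate 3. SAL30 replicate 1 stood apart from the rest, with a median correlation of 0.933 to the other arrays, and its microglia markers summed to 4340 against at most 2330 elsewhere. On CA20 replicate 2 the choroid plexus markers, mostly TTR, had a summed intensity of 12200 against at most 407 on any other array. Neuronal and astrocyte markers were bright in sum on all arrays, with 6 neuronal markers summing to 28300 or more and 7 astrocyte markers to 28700 or more. Presence of each single marker was not judged. These are bulk samples, so a change in the number of cells of a type and a change in RNA per cell cannot be told apart.

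By group mean, IER5 probe sets 1 and 3 were higher than in the control in all 6 reperfused groups. Both were highest at 180 min within each infusion arm. The SAL30 and SAL60 differences from CA0 did not pass the test given below on either probe set. Within each arm, the rise from the earliest to the latest time passed on probe set 1 only. The dim, untested IER5 probe set had a mean of 4.02 in SAL180 and 12.8 in SAL60. On probe set 1 the IER5 intensity in CA0 was 325, 357 and 247, a mean of 309 ± 56.7 (SD, n = 3). In SAL30 it was 420, 399 and 498, a mean of 439 ± 52.5 (SD, n = 3). In SAL60 it was 470, 434 and 528, a mean of 477 ± 47.2 (SD, n = 3). No array of either group overlapped the control arrays. In SAL180 the 3 arrays read 822, 691 and 651, a mean of 721 ± 89.3 (SD, n = 3), and the lowest of them lay above every SAL30 and SAL60 array.

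Under methylene blue the IER5 values rose over the same range. The MB30 arrays read 464, 478 and 434 on probe set 1, a mean of 459 ± 22.3 (SD, n = 3). The MB60 arrays read 609, 581 and 530, a mean of 573 ± 40.1 (SD, n = 3). The MB180 arrays read 767, 665 and 918, a mean of 783 ± 128 (SD, n = 3), and MB180 replicate 3 was the highest of all 30 arrays. In all 3 groups each array lay above each CA0 array.

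**Figure D1:**
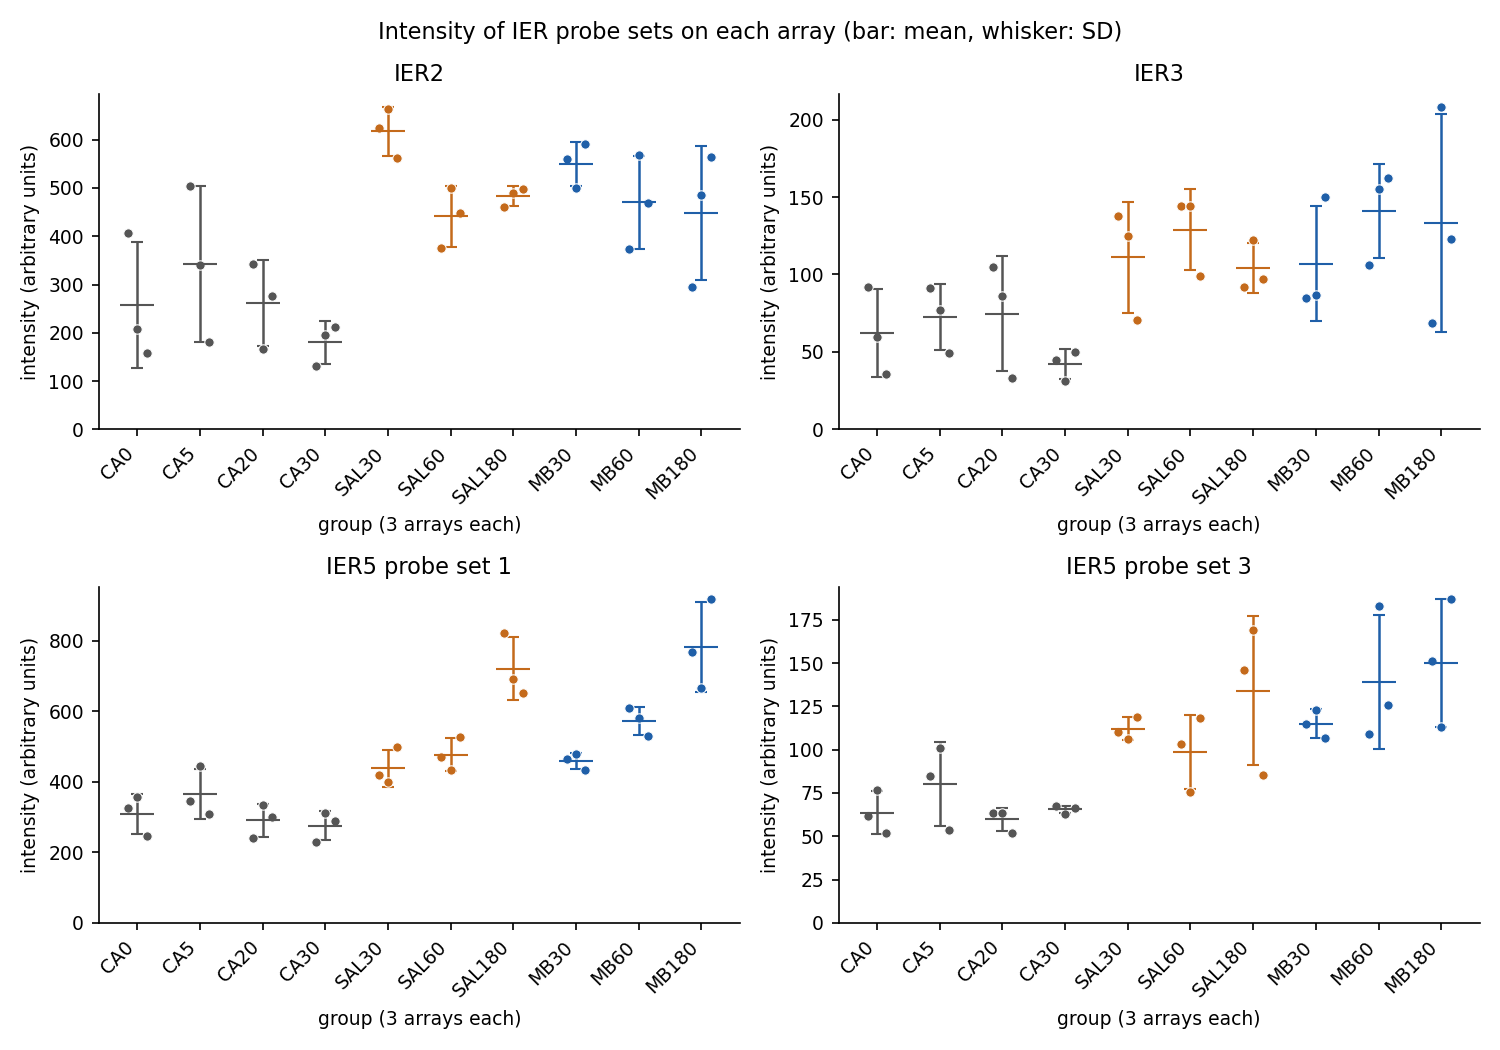
Intensity (arbitrary units, linear axis from 0) of IER2, IER3 and IER5 probe sets 1 and 3 on each of the 30 arrays, by group; each point is 1 array, the bar is the group mean and the whisker the SD of 3 arrays. IER5 probe set 1 climbs from a mean of 309 in CA0 to 721 in SAL180 and 783 in MB180, while IER2 is highest at 30 min, with a mean of 617 in SAL30.

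Differences were tested with limma on log2(intensity + 16), a scale that understates the change of dim probe sets, with p-values adjusted over all 16799 probe sets tested; errors of log2 differences are standard errors. IER5 probe set 1 rose by 1.19 ± 0.16 in SAL180 over CA0, with an adjusted p of 7.96e-05, which placed it at rank 18 of 16799 by the strength of the test. It passed under all 10 alternatives tried, with an adjusted p of at most 0.031, and without each of the 6 arrays in turn, at most 0.00191. It was the 1 member of 4 called in that comparison, in which 0.619% of all probe sets were called higher. In SAL30 and SAL60 it was 0.49 ± 0.16 and 0.61 ± 0.16 above CA0, with adjusted p of 0.528 and 0.173, and 0 of 4 members were called at either time, where 0.185% and 0.274% of all probe sets were called higher. At an unadjusted p under 0.05, all 4 members passed in SAL30 and in SAL60 and 3 in SAL180, against 7.38%, 6.3% and 8.73% of all probe sets. No overlap with CA0, in the higher direction, was seen for 3 members in SAL30, 2 in SAL60 and 3 in SAL180, against 6.24%, 6.07% and 7.76% of all probe sets.

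Against the same 3 CA0 arrays, IER5 probe set 1 rose by 0.56 ± 0.16 in MB30, 0.87 ± 0.16 in MB60 and 1.30 ± 0.16 in MB180, with adjusted p of 0.0253, 0.0014 and 1.41e-05. Far more of the array was called in these comparisons, with 7.58%, 7.05% and 5.7% of all probe sets called higher, and 3, 3 and 2 of the 4 members were called, all higher. IER5 probe sets 1 and 3, of the same gene, were among them each time. No overlap in the higher direction was seen for 3, 3 and 2 members, against 19.5%, 16.6% and 16.7% of all probe sets. The call in MB30 fell short on removal of CA0 replicate 3 (0.41, adjusted p = 0.135) and on removal of MB30 replicate 1, 2 or 3 (0.53 to 0.60, adjusted p from 0.0507 to 0.0758). Centring each array on its median moved the median of all probe sets by -0.18 in MB30, -0.13 in MB60 and -0.17 in MB180 against CA0, and of the probe sets called the share that was higher went from 62.3%, 56.2% and 60.6% to 26%, 30.8% and 24.8% (46.3%, 46.5% and 46.1% after quantile normalization). The IER5 probe set 1 call in MB30 was lost there too, at 0.38 ± 0.17 with an adjusted p of 0.122, while those in MB60 and MB180 held.

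The other IER5 probe sets differed in brightness and in how steadily they read. Probe set 3 read 61.7, 76.7 and 52.1 in CA0, a mean of 63.5 ± 12.4 (SD, n = 3). After saline it read 110, 106 and 119 in SAL30, then 103, 75.4 and 118 in SAL60, then 146, 169 and 85.6 in SAL180. After methylene blue it read 115, 123 and 107 in MB30, then 109, 183 and 126 in MB60, then 151, 113 and 187 in MB180. SAL60 replicate 2 and SAL180 replicate 3 were its lowest reperfused arrays, and only SAL60 overlapped the control. Both had 3'/5' ratios above 2.

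Probe set 3 rose in MB30, MB60 and MB180, by 0.73 ± 0.23, 0.95 ± 0.23 and 1.05 ± 0.23 with adjusted p of 0.0356, 0.00805 and 0.00531. In SAL30, SAL60 and SAL180 it was 0.69 ± 0.23, 0.52 ± 0.23 and 0.88 ± 0.23 above CA0, with adjusted p of 0.524, 0.725 and 0.0672. It passed in SAL180 without replicate 3 of that group (1.13, adjusted p = 0.0122), and it no longer passed in MB60 without MB60 replicate 2 (0.76, adjusted p = 0.0629). The MB30 call was lost without CA0 replicate 1 or 3 or any MB30 array, with values of 0.63 to 0.78 and adjusted p from 0.0686 to 0.126. With the 3'/5' ratio as a covariate, the SAL180 difference passed at 0.93 ± 0.20 (adjusted p = 0.0122), and the MB30 and MB60 differences fell short at 0.38 ± 0.23 (adjusted p = 0.376) and 0.65 ± 0.22 (adjusted p = 0.105). Probe set 2 had a mean log2 value of 4.56, at the 9.8th percentile of all probe sets, and its intensity lay between 2.01 and 63.8 on the 30 arrays, with MB180 replicate 3 the highest. Its groups all overlapped their neighbours in the order of levels, and it was not tested.

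Within groups, the level of probe set 3 was related to the RNA quality measure, and no relation was detected for probe set 1; the difference between the relations was not tested. Each array's deviation from its group mean was compared between the 4 tested probe sets and the 3'/5' ratio, in 10 pairs of measures over 30 arrays, with 100000 permutations within groups. Probe set 3 was lower where the 3'/5' ratio was higher, with Pearson's r of -0.59 (permutation p = 0.00387, adjusted 0.0387) and Spearman's rho of -0.60 (permutation p = 0.00611, adjusted 0.0394). Without the 2 arrays farthest from the median, r was -0.51. For probe set 1 the same r was -0.03 (permutation p = 0.891). The IER5 probe sets 1 and 3 deviated together, with r of 0.57 (permutation p = 0.00776, adjusted 0.0388) and rho of 0.57 (adjusted 0.0394), and r was 0.50 without the 2 farthest arrays. For IER2 and IER3, r was 0.52 (permutation p = 0.0369) and did not pass the adjustment, at 0.123. The part of RNA quality in the group differences was not tested beyond the covariate fit.

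**Figure D2:**
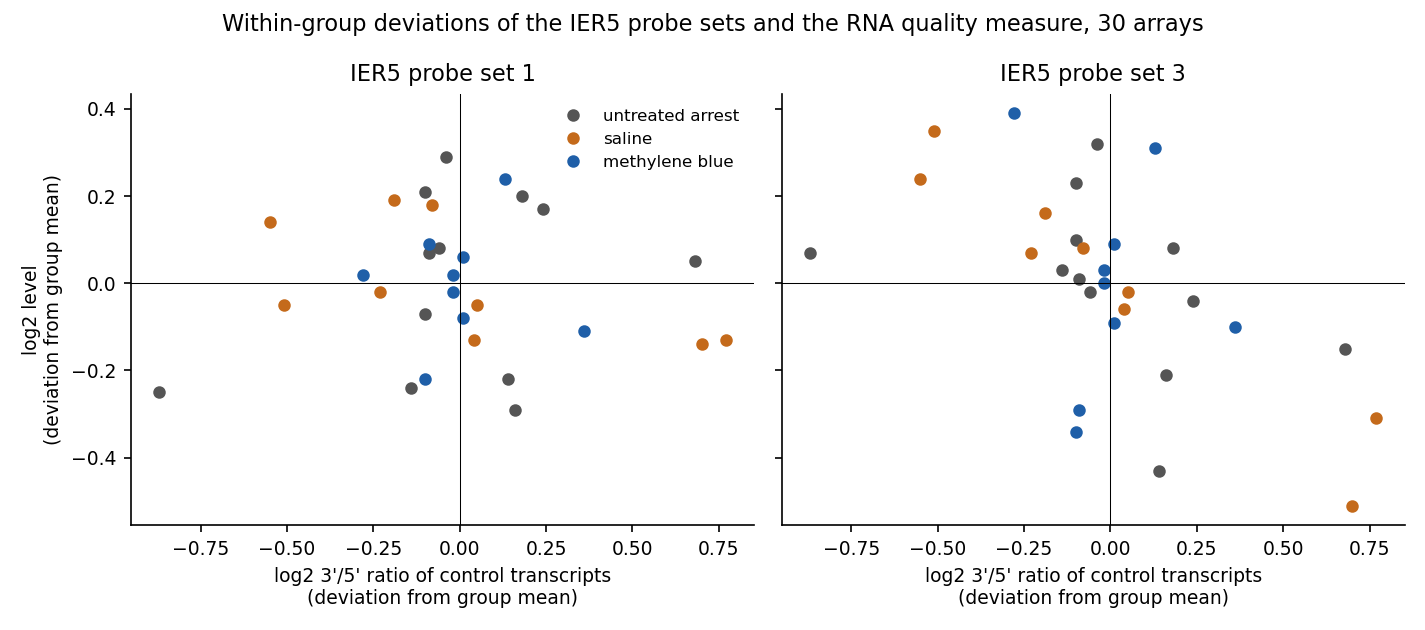
Deviation of IER5 probe sets 1 and 3 from their group mean (log2, vertical axes) against that of the log2 3'/5' ratio (horizontal axes) on 30 arrays, coloured by untreated arrest, saline or methylene blue. Probe set 3 falls with the ratio (r of -0.59) and probe set 1 shows no slope (r of -0.03).

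By group mean, IER2 was highest at 30 min after circulation returned, in both arms. Its intensity in CA0 was 406, 208 and 159, a mean of 258 ± 131 (SD, n = 3), so that replicate 1 stood far above the other two. In SAL30 it was 624, 664 and 562, a mean of 617 ± 51.5 (SD, n = 3). In MB30 it was 560, 500 and 591, a mean of 550 ± 46 (SD, n = 3). Every array of these groups lay above every control array.

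At the later times IER2 was lower than at 30 min but mostly above the control. In SAL60 it read 375, 499 and 449, and in SAL180 it read 460, 490 and 498, a mean of 483 ± 20.4 (SD, n = 3). In MB60 it read 374, 568 and 468, and in MB180 it read 294, 486 and 564, a mean of 448 ± 139 (SD, n = 3). SAL60, MB60 and MB180 each had 1 array below CA0 replicate 1, and SAL180 had none.

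IER2 passed the test in MB30, where it rose by 1.15 ± 0.31 over CA0 (adjusted p = 0.0175). In SAL30 the difference was 1.31 ± 0.31, with an adjusted p of 0.0932. It was 0.83 ± 0.31 in SAL60 (adjusted p = 0.595), 0.97 ± 0.31 in SAL180 (0.187), 0.91 ± 0.31 in MB60 (0.0508) and 0.82 ± 0.31 in MB180 (0.0922). Without the bright control array, CA0 replicate 1, 4 more differences passed, with an adjusted p of 0.00899 in SAL30 (1.67), 0.0336 in SAL180 (1.33), 0.0152 in MB60 (1.28) and 0.0251 in MB180 (1.18). The one in SAL60 still fell short (1.2, 0.167) and that in MB30 still passed (1.51, 0.00528). MB60 also passed without its own replicate 1 (1.06, adjusted p = 0.0489) and MB180 without its own (1.08, 0.0389), while MB30 fell short without CA0 replicate 2 (1.06, 0.062), CA0 replicate 3 (0.88, 0.0992) or MB30 replicate 3 (1.10, 0.0598) and with the 3'/5' ratio as a covariate (1.05 ± 0.36, 0.114).

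IER3 had the widest spread between replicates of the tested members, and its means were above the control in all 6 reperfused groups. It read 92.2, 59.8 and 35.5 in CA0, a mean of 62.5 ± 28.4 (SD, n = 3). After saline it read 138, 125 and 70.4 in SAL30, then 144, 144 and 98.9 in SAL60, then 92, 122 and 97.4 in SAL180. After methylene blue it read 84.7, 86.6 and 150 in MB30, then 106, 155 and 162 in MB60, then 68.8, 208 and 123 in MB180. SAL60 and MB60 lay wholly above the control, and the other 4 reperfused groups each had at least 1 array at or below CA0 replicate 1.

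IER3 passed the test in MB60, where it rose by 1.05 ± 0.34 over CA0 (adjusted p = 0.0449). It fell short on removal of CA0 replicate 2 (1.06, adjusted p = 0.0929), CA0 replicate 3 (0.78, 0.191), MB60 replicate 2 (0.98, 0.134) or MB60 replicate 3 (0.95, 0.121), after median centring (0.91 ± 0.34, 0.0607), and with the 3'/5' ratio as a covariate (0.82 ± 0.38, 0.248). The differences in SAL30, SAL60 and SAL180 were 0.72 ± 0.34, 0.93 ± 0.34 and 0.67 ± 0.34, with adjusted p of 0.673, 0.595 and 0.619. Those in MB30 and MB180 were 0.68 ± 0.34 and 0.88 ± 0.34, with adjusted p of 0.201 and 0.104, and the MB180 difference passed without MB180 replicate 1 (1.23, adjusted p = 0.0313).

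The spread between replicates differed among the members. The residual SD was 0.45 for IER3 and 0.41 for IER2 on the log2 scale, at the 90.3rd and 85.9th percentiles of all tested probe sets, whose median was 0.26. For IER5 it was 0.19 on probe set 1 and 0.27 on probe set 3. Differences of like size passed for IER5 probe set 1 and not for IER2: the 0.87 of IER5 probe set 1 in MB60 had an adjusted p of 0.0014, and the 0.91 of IER2 there had 0.0508.

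After untreated arrest of 5, 20 or 30 min, no member passed the test against the control. IER5 probe set 1 read 345, 446 and 308 in CA5, then 240, 333 and 300 in CA20, then 230, 311 and 288 in CA30. IER2 read 504, 340 and 181 in CA5, then 343, 166 and 277 in CA20, then 131, 196 and 213 in CA30. IER3 read 91.5, 77.3 and 49.6 in CA5, then 105, 86.3 and 33.3 in CA20, then 44.8, 31.1 and 49.9 in CA30. All of these groups overlapped the CA0 arrays.

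By limma, 0 of 4 tested members were called in CA5, CA20 or CA30 against CA0, at an adjusted or an unadjusted p under 0.05, in comparisons that called 0%, 0.0119% and 0.0119% of all probe sets and had 1.89%, 4.24% and 4.06% at an unadjusted p under 0.05. The CA5 differences were all positive, from 0.21 ± 0.34 for IER3 to 0.38 ± 0.31 for IER2. In CA30 they were -0.40 ± 0.31 for IER2, -0.39 ± 0.34 for IER3, -0.15 ± 0.16 for IER5 probe set 1 and 0.05 ± 0.23 for probe set 3, whose sign turned after median centring (-0.01). The 95% interval of the CA30 difference ran from -1.03 to 0.23 for IER2 and from -0.48 to 0.18 for IER5 probe set 1.

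Reperfused and unreperfused cortex were also compared without the CA0 arrays, as the mean of the 3 saline groups against the mean of CA5, CA20 and CA30. The saline groups differ from these also in compressions, infusion, arrest length and sampling time, so reperfusion cannot be told apart from those. The same holds for comparisons with CA0. In this comparison 3 of the 4 tested members rose, where 0.988% of all probe sets were called higher. IER5 probe sets 1 and 3, both among them, are of the same gene. IER2 rose by 1.02 ± 0.18 (adjusted p = 0.00106), IER5 probe set 1 by 0.76 ± 0.09 (6.21e-06) and IER5 probe set 3 by 0.62 ± 0.13 (0.00969). IER3 was 0.77 ± 0.20 higher, with an adjusted p of 0.0522 that went below the threshold without CA20 replicate 1 (0.86, 0.0302) or without SAL30 replicate 3 (0.86, 0.025). Leaving out SAL30 replicate 1 and the 4 arrays with a 3'/5' ratio above 2 together, an alternative chosen after the data were seen, ended the IER2 call at 0.84 ± 0.23 (adjusted p = 0.14) and kept those of IER5, at adjusted p of 0.000173 or lower on probe set 1.

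Over single arrays, the 12 unreperfused ones and the 18 reperfused ones of both arms separated best, among the members, for IER5. The arrays pool groups of unlike time and infusion, so they are not replicates of 1 condition. The share of all probe sets reaching such counts was not computed. On probe set 3 the unreperfused arrays lay between 52 and 101, with a median of 63.5, and the reperfused ones between 75.4 and 187, with a median of 117, of which 16 exceeded every unreperfused array. On probe set 1 the ranges were 230 to 446 (median 310) and 399 to 918 (median 529), and 14 of 18 exceeded every unreperfused array. For IER3, with 31.1 to 105 (median 54.9) and 68.8 to 208 (median 122), 11 of 18 did so. For IER2, with 131 to 504 (median 211) and 294 to 664 (median 499), 7 of 18 did so, since CA5 replicate 1 was as bright as many reperfused arrays.

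Ordered by mean log2 level, all 6 reperfused groups stood above all 4 unreperfused ones for each of the 4 tested probe sets. The share of all probe sets with such an order was not computed, and IER5 probe sets 1 and 3 are of the same gene. IER5 probe set 1 ran MB180, SAL180, MB60, SAL60, MB30, SAL30, CA5, CA0, CA20, CA30, and the neighbours SAL180 and MB60, and MB60 and SAL60, did not overlap. IER2 ran SAL30, MB30, SAL180, MB60, SAL60, MB180, CA5, CA20, CA0, CA30, and of its neighbours only MB30 and SAL180 did not overlap. IER3 ran MB60, SAL60, MB180, SAL30, MB30, SAL180, CA5, CA20, CA0, CA30, with a gap only between SAL180 and CA5. On IER5 probe set 3 all neighbours overlapped.

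Methylene blue against saline is the comparison named in the study's title, and no member passed the test in it. By limma, 0 of 4 members were called at 30, 60 or 180 min, where 4.09%, 1.52% and 1.9% of all probe sets were called in either direction, and 0 of 4 passed at an unadjusted p under 0.05, which 21.3%, 17.3% and 18.6% of all probe sets did. Of the probe sets called, 58.7%, 47.7% and 67.4% were higher under methylene blue, or 33.8%, 36.9% and 25.3% after median centring and 48.1%, 44.6% and 54.5% after quantile normalization. The differences of IER2 were -0.16 (95% interval from -0.79 to 0.47), 0.08 (from -0.55 to 0.71) and -0.15 (from -0.78 to 0.48). Those of IER3 were -0.04 (from -0.75 to 0.66), 0.12 (from -0.59 to 0.82) and 0.21 (from -0.49 to 0.92). For both genes these intervals spanned more than 1 on the log2 scale.

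IER5 was read more tightly. On probe set 1, methylene blue minus saline was 0.07 (95% interval from -0.26 to 0.40), 0.26 (from -0.07 to 0.59) and 0.11 (from -0.22 to 0.44) at 30, 60 and 180 min. At 60 min the 3 MB60 arrays, from 530 to 609, lay above the 3 SAL60 arrays, from 434 to 528, with an adjusted p of 0.425; 10.3% of all probe sets were higher without overlap in that comparison. Median centring turned the sign of the probe set 1 difference at 30 min (-0.02) and at 180 min (-0.03). On probe set 3 the differences were 0.04, 0.43 and 0.17, with adjusted p of 0.948, 0.331 and 0.741.

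Averaged over the 3 times, the difference was -0.08 ± 0.18 for IER2 (95% interval from -0.44 to 0.29), 0.09 ± 0.20 for IER3 (from -0.31 to 0.50), 0.15 ± 0.09 for IER5 probe set 1 (from -0.05 to 0.34) and 0.21 ± 0.13 for probe set 3 (from -0.05 to 0.48). Again 0 of 4 members were called by limma, with 0 at an unadjusted p under 0.05, in a comparison that called 25.2% of all probe sets and had 38.0% at an unadjusted p under 0.05. With the 3'/5' ratio as a covariate the sign of the mean difference turned for IER3 (-0.09) and for IER5 probe set 3 (-0.02). Centring each array on its median moved the share of called probe sets that were higher from 54.7% to 31% here, and quantile normalization to 44.5%. The test of whether the difference varied over the 3 times called 0 probe sets of 16799, with 483 at an unadjusted p under 0.05, and its unadjusted p for the 4 members lay between 0.469 and 0.868.

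**Figure D3:**
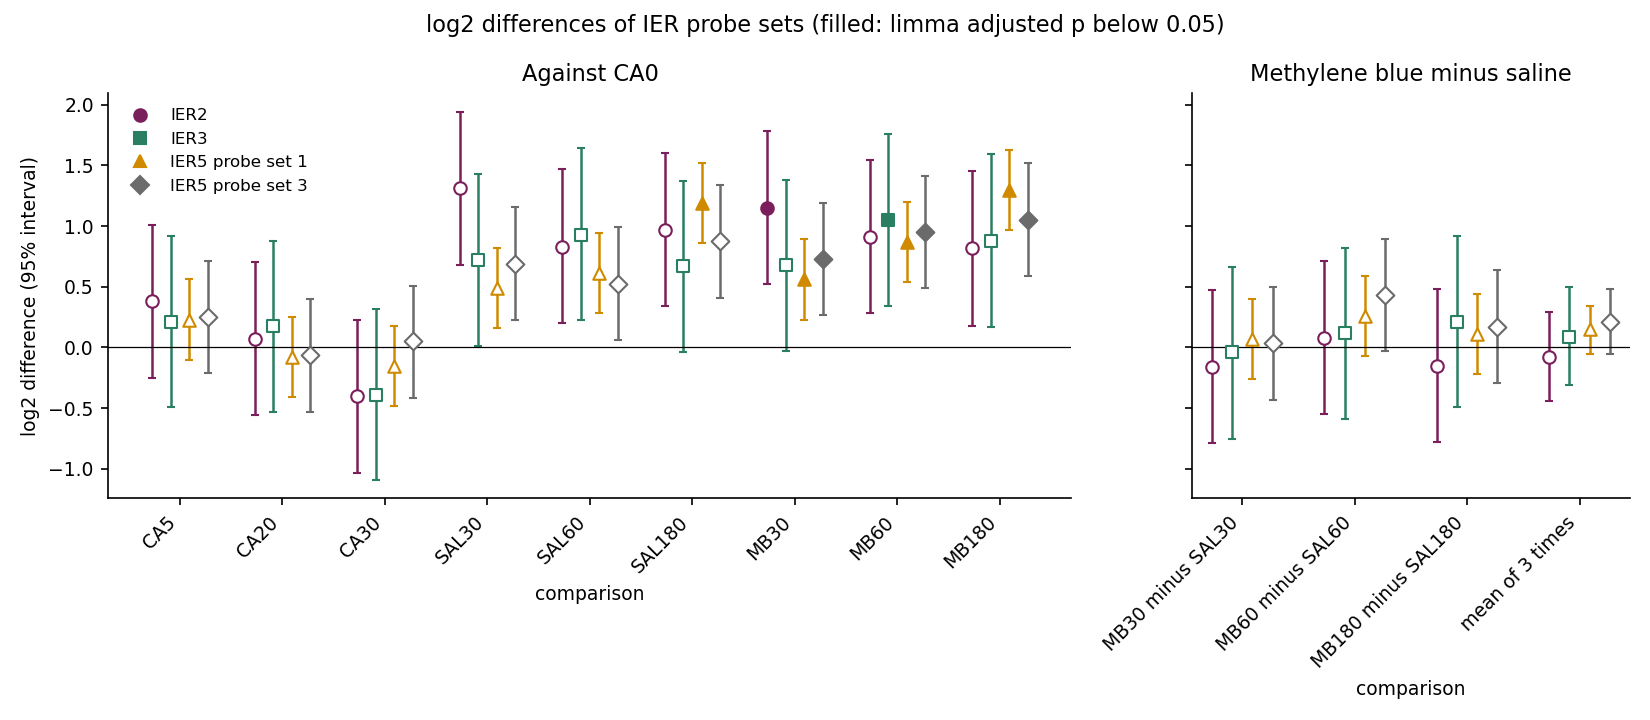
log2 differences of the 4 tested probe sets with 95% intervals: left, each group against CA0; right, methylene blue minus saline at each time and averaged over the 3 times. Filled symbols mark adjusted p below 0.05; IER5 probe set 1 is filled in SAL180 (1.19) and in all 3 methylene blue groups, and no symbol is filled on the right.

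From 30 to 180 min after circulation returned, IER5 rose in each arm on probe set 1, and IER2 did not pass the test. IER5 probe set 1 rose by 0.69 ± 0.16 from SAL30 to SAL180 (adjusted p = 0.0376) and by 0.74 ± 0.16 from MB30 to MB180 (adjusted p = 0.04), and these comparisons share no array. It was the 1 member of 4 called in each, where 0.417% and 0.185% of all probe sets were called higher (under saline 63.6% of those called, or 75.2% after median centring). The 180 min arrays did not overlap the 30 min arrays in either arm, as for 7.95% and 5.42% of all probe sets. IER5 probe set 3 differed by 0.18 ± 0.23 and 0.32 ± 0.23, with adjusted p of 0.75 and 0.913. IER3 differed by -0.05 ± 0.34 and 0.20 ± 0.34, with adjusted p of 0.962 and 0.992.

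IER2 at 180 min differed from that at 30 min by -0.34 ± 0.31 under saline (adjusted p = 0.65), with no overlap between the groups, as for 8.2% of all probe sets, and by -0.33 ± 0.31 under methylene blue (adjusted p = 0.971), where the groups overlapped. When each of the 6 arrays was left out in turn, the IER5 probe set 1 call under saline held in 1 case, without SAL30 replicate 3 (0.79, adjusted p = 0.0384), and was lost without SAL30 replicate 1 (0.67, 0.117), SAL30 replicate 2 (0.63, 0.106), SAL180 replicate 1 (0.60, 0.178), SAL180 replicate 2 (0.72, 0.0668) or SAL180 replicate 3 (0.76, 0.0765). It was also lost with the 3'/5' ratio as a covariate (0.70, adjusted p = 0.0783), in a fit to the compared groups alone (0.69, 0.364) and without the 5 arrays named above together (0.74, 0.214). Under methylene blue it also held in 1 case of 6, without MB180 replicate 2 (0.85, adjusted p = 0.0301), and was lost without MB30 replicate 1 (0.75, 0.118), 2 (0.77, 0.111) or 3 (0.70, 0.17) or MB180 replicate 1 (0.75, 0.108) or 3 (0.62, 0.252), and with the replicate number as a block (0.74 ± 0.17, 0.0549).

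The unequal course of IER5 and IER2 can be read within each array, as log2 IER5 probe set 1 minus log2 IER2; this measure was chosen after its values were seen. It ran from -0.71 to -0.17 in SAL30 and from 0.38 to 0.82 in SAL180. It ran from -0.43 to -0.06 in MB30 and from 0.44 to 1.34 in MB180. All 6 arrays at 180 min lay above all 6 at 30 min. The mean shift over the arms was 1.05, and 0.59 with probe set 3 in place of probe set 1. Probe set 1 minus probe set 3, both of IER5, shifted by 0.46. Since the measures were chosen on this pattern, they are given with no test.

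**Figure D4:**
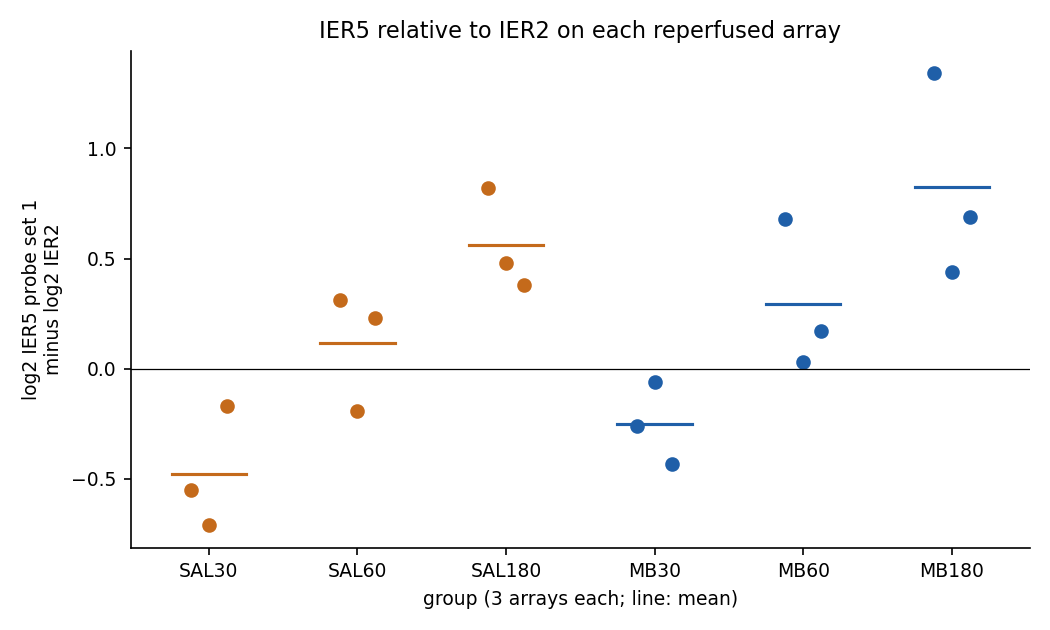
log2 IER5 probe set 1 minus log2 IER2 on each of the 18 reperfused arrays, by group; each point is 1 array and the line is the mean of 3. The points at 30 min lie between -0.71 and -0.06 and those at 180 min between 0.38 and 1.34, in both arms.

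Genes whose 10 group means ran most alike were sought among 5770 named genes, by Pearson's r over the 10 means; the groups share reperfusion as their main contrast, so r is a description. For IER2 these were FOS (0.978), an AP-1 subunit, BTG2 (0.954), an antiproliferative gene, ZFP36 (0.952), which destabilizes messenger RNAs, ATF3 (0.951), a stress transcription factor, and CYR61 (0.938), a matrix protein. FOS went from a mean of 1030 in CA0 to 4110 in SAL30 and 2760 in SAL180, a rise of 2.11 ± 0.41 in SAL30 (adjusted p = 0.0146). BTG2 went from 50.1 to 502 and then 142.

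For IER5, by probe set 1, the nearest were DNAJA4 (0.98), an HSP40 co-chaperone, GADD45B (0.971) and GADD45G (0.966), stress sensors of growth arrest, RLIM (0.962), a ubiquitin ligase, and MYC (0.961), a growth transcription factor. DNAJA4 went from a mean of 1350 in CA0 to 1600 in SAL30 and 2280 in SAL180, a rise of 0.75 ± 0.15 in SAL180 (adjusted p = 0.0101). GADD45G went from 227 to 283 and then 650, a rise of 1.45 ± 0.18 (adjusted p = 3.38e-05). RLIM was 0.51 ± 0.18 above CA0 in SAL180, with an adjusted p of 0.287.

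For IER3 the nearest were CCL2 (0.967), a chemokine, SAT1 (0.958), a polyamine enzyme, FOSL2 (0.942), an AP-1 subunit, ATF3 (0.94) and CDKN1A (0.935), a cell cycle inhibitor. CCL2 went from a mean of 104 in CA0 to 244 in SAL30, 280 in SAL60 and 322 in MB180, and it did not pass in SAL30, SAL180 or MB180, with adjusted p of 0.674, 0.892 and 0.152. CDKN1A rose by 0.93 ± 0.22 in SAL180 (adjusted p = 0.0372). Among the members, the r of the group means was 0.89 for IER2 with IER3, 0.74 for IER2 with IER5 probe set 1, 0.82 for IER3 with IER5 probe set 1 and 0.95 for IER5 probe sets 1 and 3.

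Other immediate early genes rose after reperfusion in both arms. Of 33 tested on a list of such genes, 7, 8 and 9 rose in SAL30, SAL60 and SAL180 and 15, 16 and 14 in MB30, MB60 and MB180, with 0 lower. The background was 0.185%, 0.274% and 0.619% of all probe sets called higher in the saline groups and 7.58%, 7.05% and 5.7% in the methylene blue groups, so the counts in the arms stand against unequal backgrounds. The median difference of the list in the saline groups was 0.48, 0.60 and 0.65, against 0.02, 0.01 and 0.00 over all tested probe sets. ATF3 rose by 3.64 ± 0.30 in SAL30 (adjusted p = 3.13e-08). DUSP1, which dephosphorylates MAP kinases, rose by 2.42 ± 0.30 in SAL30 (adjusted p = 2.57e-05), and in SAL180 it was 0.84 ± 0.30 above CA0 (0.279). GADD45A, a p53 and stress target, had the larger difference at the later time, with a rise of 1.35 ± 0.19 in SAL30 and 1.90 ± 0.19 in SAL180 (adjusted p = 1.1e-06).

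The known role of IER5 concerns HSF1, and targets of HSF1 are given here. A relation of IER5 to HSF1 activity in these data was not tested. Of 20 tested heat shock genes, 4, 4 and 6 rose in SAL30, SAL60 and SAL180 and 7, 8 and 8 in MB30, MB60 and MB180, with 0 lower. Of all probe sets, 0.185%, 0.274% and 0.619% were called higher in these saline groups, and 7.58%, 7.05% and 5.7% in the methylene blue groups. The list's median in SAL30, SAL60 and SAL180 was 0.13, 0.17 and 0.25, against 0.02, 0.01 and 0.00 over all tested probe sets. In MB30, MB60 and MB180 it was 0.11, 0.31 and 0.43, against 0.04, 0.01 and 0.04. HSPA6, an inducible HSP70, rose by 4.41 ± 0.20 in SAL30 and 5.27 ± 0.20 in SAL180 (adjusted p = 4.56e-16). BAG3, an HSP70 co-chaperone, rose by 1.97 ± 0.30 and 2.96 ± 0.30 (adjusted p = 0.000496 and 9.77e-07). HSPB8, a small heat shock protein, was at -0.02 ± 0.15 in SAL30 (adjusted p = 0.986) and rose by 1.17 ± 0.15 in SAL180 (3.38e-05), while DNAJB1 rose by 2.33 ± 0.28 in SAL30 and 1.87 ± 0.28 in SAL180.

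Of 13 tested subunits and regulators of PP2A, the phosphatase that IER5 binds, 0 were called in any saline group. Under methylene blue 1, 2 and 1 were higher and 1, 2 and 1 lower in MB30, MB60 and MB180, where 7.58%, 7.05% and 5.7% of all probe sets were called higher and 4.59%, 5.49% and 3.71% lower, which a count of 1 or 2 in 13 does not set apart. SET, an inhibitor of PP2A, fell by 0.70 ± 0.12, 0.69 ± 0.12 and 0.64 ± 0.12 there (adjusted p = 0.000575, 0.000682 and 0.00152), and the regulatory subunit PPP2R5E rose by 0.76 ± 0.22, 0.84 ± 0.22 and 0.78 ± 0.22 (0.0258, 0.0132 and 0.0265). In SAL30, SAL60 and SAL180 the differences from CA0 were -0.06, 0.04 and 0.07 for SET and 0.51, 0.35 and -0.01 for PPP2R5E, and none passed. Against saline at 30, 60 and 180 min, SET differed by -0.64, -0.73 and -0.71 (adjusted p = 0.0041, 0.00215 and 0.00267). PPP2R5E differed by 0.25, 0.49 and 0.78 there (adjusted p = 0.54, 0.245 and 0.0583), and by 0.51 in the mean over the 3 times (0.00506). Of all probe sets, 4.09%, 1.52% and 1.9% were called at these times and 25.2% in the mean.

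Serum response factor, NF-kB and p53 act upstream of many early genes, and their tested targets are given beside 0.185%, 0.274% and 0.619% of all probe sets called higher in SAL30, SAL60 and SAL180, and 7.58%, 7.05% and 5.7% in MB30, MB60 and MB180. Of 12 serum response factor targets, 2, 2 and 1 rose in SAL30, SAL60 and SAL180 and 5, 3 and 4 in the methylene blue groups, CYR61 and FOS among them; CYR61 rose by 2.88 ± 0.29 in SAL30 (adjusted p = 2.01e-06). Of 9 NF-kB targets, 1, 0 and 0 rose under saline and 2, 1 and 1 under methylene blue. CXCL2, a chemokine for neutrophils, rose by 3.27 ± 0.43 in SAL30 (adjusted p = 7.87e-05) and was 0.03 ± 0.43 above CA0 in SAL180 (0.997). Of 9 p53 targets, 2, 2 and 2 rose under saline and 3, 3 and 4 under methylene blue. BTG2 rose by 3.19 ± 0.49 in SAL30 (adjusted p = 0.000597). The lists share members, so their counts are not separate results. CYR61, FOS, GADD45A and BTG2 are on the immediate early list too, and TAGLN is both a serum response factor target and a smooth muscle marker. Of the white blood cell markers, 5 of 6 lay below the filter and 0 were at 0. The 1 tested was not called in any reperfused group against CA0. The summed intensity of the white blood cell markers ran from 96.9 to 143 in CA0, from 131 to 248 in SAL30, from 156 to 164 in SAL60, from 168 to 219 in SAL180, from 151 to 197 in MB30, from 116 to 182 in MB60 and from 235 to 316 in MB180. In unreperfused cortex it ran from 86.9 to 152 in CA5, from 115 to 171 in CA20 and from 125 to 152 in CA30. SAL30, MB60 and these unreperfused groups overlapped CA0. How often such sums of other probe sets do not overlap was not computed. Of 6 tested smooth muscle and pericyte markers, 3 were called higher in MB30, 0 in MB60, 1 in MB180 and 0 in each saline group. Between the arms, 0 were called at 30, 60 or 180 min. Their summed intensity ran from 2340 to 2980 in CA0, from 3200 to 3580 in MB30, from 2300 to 3150 in MB60 and from 2920 to 3440 in MB180. Under saline it ran from 2190 to 3640 in SAL30, from 2700 to 3270 in SAL60 and from 2680 to 2860 in SAL180. In CA5, CA20 and CA30 it reached 3020, 2850 and 3210. SAL30 replicate 1 was the highest array. Of the other marker lists, 2 of 8 endothelium markers were called higher in MB180 and 1 of 5 meninges markers in MB30. Of 7 astrocyte markers, 1 was higher in MB60 and 1 lower in MB180, where 3.71% of all probe sets were lower. No other marker of these lists was called against CA0. Against saline at 30 min, 1 of 4 microglia markers was lower and 1 of 5 meninges markers higher, against 4.09% of all probe sets called. The part of any marker list in the IER differences was not tested.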

How the data were processed

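Cerebral cortex RNA was measured on 30 Affymetrix porcine arrays. The authors deposited linear intensity values, scaled per array with GCOS, per the submitters' processing notes; the sources used here do not give its version, signal algorithm or scaling target. With the 2% at either end trimmed, each array's mean was 300.05 to 300.06. After removal of 124 control probe sets and of the lowest 30% by mean log2 value (intensity of about 29.5), 16799 remained. limma 3.58.1 in R 4.3.3 was fitted to log2(intensity + 16) with 1 mean per group (20 residual degrees of freedom) and an intensity trend. Tests were two-sided, adjusted by Benjamini-Hochberg in each of 17 contrasts at 0.05. The script was tested on simulated data.

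The members, gene lists and named genes were chosen with earlier results of these data known. Named are all IER2, IER3 and IER5 probe sets, the 5 genes most alike in group means to each, and of each list at most 4 members called against CA0, by the smallest p under saline. All 3 gene IDs matched the RefSeq table by ID; no sequence or position was used. Comparisons with CA0 share its 3 arrays, so no overlap between them is given. Alternatives were other pseudocounts, filters and scalings, the compared groups alone, the replicate number as a block, the 3'/5' ratio as a covariate and each array left out. Same-numbered arrays correlated above 0.1 in all 3 pairs only for CA30 against CA0 (0.17, 0.12 and 0.13), and the labels do not tie the numbers. Precision is limited by 3 arrays per group, and an exact permutation test of 1 value between groups of 3 cannot go below 0.1.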

Additional observations from a re-analysis of the deposited data

How the results depend on the processing

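Of 646 alternative values of the tested members, 596 kept their direction and their side of the threshold, 21 fell short, 8 newly passed and 21 turned in sign, all of these last for differences that had not passed. The IER5 probe set 1 calls in SAL180, MB60 and MB180 against CA0 held under all alternatives and without each array in turn. Causes of the other changes were not tested. Below, IER5-1 and IER5-3 are IER5 probe sets 1 and 3, and a group named alone is set against CA0.

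With a pseudocount of 1, IER5-1 in MB180 against MB30 fell short (0.76) and IER3 in saline against untreated arrest passed (0.94). With a pseudocount of 64, IER2 in MB60 passed (0.79). With no filter, IER3 in MB60 fell short (1.05). With the filter at the 50th percentile, IER3 and IER5-3 fell below it and gave no value. With quantile normalization, IER5-3 in MB30 (0.52) and IER3 in MB60 (0.90) fell short, IER2 in MB60 passed (0.93), and the sign turned for IER5-3 in CA30 (-0.02), IER5-3 in MB30 against SAL30 (-0.05) and IER3 in SAL180 against SAL30 (0.02). With median centring, IER5-1 in MB30 (0.38), IER5-3 in MB30 (0.55) and IER3 in MB60 (0.91) fell short. The sign turned there for IER5-3 in CA30 (-0.01), for IER5-1 and IER5-3 in MB30 against SAL30 (-0.02 and -0.05), for IER5-1 in MB180 against SAL180 (-0.03) and for IER3 in SAL180 against SAL30 (0.02).

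Fitted to the compared groups alone, IER5-1 in MB30 (0.56), IER5-3 in MB30 (0.73), IER3 in MB60 (1.05), IER5-1 in SAL180 against SAL30 (0.69) and IER5-1 in MB180 against MB30 (0.74) fell short, and IER3 in saline against untreated arrest passed (0.77). With the replicate number as a block, IER5-1 in MB180 against MB30 fell short (0.74, adjusted p = 0.0549), and the block changed no other call of a member.

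With the 3'/5' ratio as a covariate, IER2 (1.05), IER5-1 (0.55) and IER5-3 (0.38) in MB30, IER3 (0.82) and IER5-3 (0.65) in MB60 and IER5-1 in SAL180 against SAL30 (0.70) fell short. IER5-3 in SAL180 (0.93) and IER3 in saline against untreated arrest (0.77) passed. The sign turned for IER5-3 in CA20 (0.04), CA30 (-0.17), MB30 against SAL30 (-0.13), MB180 against SAL180 (-0.15) and the mean of methylene blue minus saline (-0.02), and for IER3 in MB60 against SAL60 (-0.05), MB180 against SAL180 (-0.04), that mean (-0.09) and SAL180 against SAL30 (0.13).

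Without SAL30 replicate 1 and the 4 arrays of high 3'/5' ratio, an alternative chosen after seeing the data, IER5-1 in SAL180 against SAL30 (0.74) and IER2 in saline against untreated arrest (0.84) fell short, and IER5-3 in SAL180 (1.13) and IER2 in MB60 (0.91) passed. The sign turned for IER5-3 in CA20 (0.01) and MB180 against SAL180 (-0.08) and for IER3 in MB30 against SAL30 (0.12) and SAL180 against SAL30 (0.14).

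Counts of all probe sets called, which are the background of the members' calls, moved by over 1.5 times in these cases. They were 2 in CA5 with a pseudocount of 1 (0 in the main setting), 1321 in MB30 with the filter at the 50th percentile (2044), 76 in MB180 against MB30 after quantile normalization (48) and 672 in MB180 against SAL180 after median centring (319). Fitted to the compared groups alone, they were 0 in CA20 and in CA30 (2 each), 12 in SAL30 (33), 19 in SAL60 (53), 55 in SAL180 (147), 1278 in MB60 (2106), 641 in MB180 (1580), 27, 63 and 15 for methylene blue against saline at 30, 60 and 180 min (687, 256 and 319), 4 in SAL180 against SAL30 (110) and 6 in MB180 against MB30 (48). With the 3'/5' ratio they were 442, 493 and 712 in MB30, MB60 and MB180, 78 and 18 for methylene blue against saline at 60 and 180 min, 1457 for its mean (4231) and 64 in SAL180 against SAL30. Without the 5 arrays they were 1 in CA20 and in CA30, 285, 45 and 63 for methylene blue against saline at 30, 60 and 180 min, 2505 for its mean, 28 in SAL180 against SAL30 and 103 in saline against untreated arrest (199).

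With each array left out in turn, IER2 ran from -0.20 to 0.43 in CA20, 1.04 to 1.67 in SAL30, 0.70 to 1.33 in SAL180, 0.88 to 1.51 in MB30, 0.64 to 1.28 in MB60 and 0.55 to 1.18 in MB180, and for methylene blue minus saline from -0.06 to 0.23 at 60 min, -0.34 to 0.11 at 180 min and -0.14 to 0.01 in the mean. IER3 ran from -0.06 to 0.48 in CA5, -0.10 to 0.57 in CA20, 0.78 to 1.31 in MB60, 0.53 to 1.23 in MB180 and 0.64 to 0.86 in saline against untreated arrest. For methylene blue minus saline IER3 ran from -0.30 to 0.12, -0.04 to 0.29 and -0.14 to 0.56 at 30, 60 and 180 min and from -0.02 to 0.21 in the mean, and from 30 to 180 min it ran from -0.31 to 0.11 under saline and -0.14 to 0.56 under methylene blue. IER5-1 ran from -0.23 to 0.05 in CA20, 0.41 to 0.67 in MB30, -0.01 to 0.22 in MB180 against SAL180, 0.60 to 0.79 in SAL180 against SAL30 and 0.62 to 0.85 in MB180 against MB30. IER5-3 ran from -0.17 to 0.05 in CA20, -0.06 to 0.16 in CA30, 0.70 to 1.13 in SAL180, 0.63 to 0.85 in MB30, 0.76 to 1.09 in MB60, -0.01 to 0.08 in MB30 against SAL30 and -0.08 to 0.35 in MB180 against SAL180.

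Counts of all probe sets called ran, with each array left out, from 0 to 1 in CA5, 0 to 2 in CA20, 1 to 2 in CA30, 23 to 47 in SAL60, 94 to 133 in SAL180, 1036 to 1476 in MB30, 897 to 1779 in MB60 and 665 to 1604 in MB180. For methylene blue against saline they ran from 246 to 1125, 27 to 221 and 23 to 613 at 30, 60 and 180 min, and from 30 to 180 min from 43 to 107 under saline and 20 to 60 under methylene blue. Array number limits the precision of all these values.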
